A study of Mus musculus with 2 samples.

Results

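The genes described here encode the machinery that starts and copies DNA: 52 genes of the replication origin and the replication fork, out of 16803 genes in the expression table. They were picked by symbol, as a list of replication genes, and the table held each symbol once. RNA came from NE4C cells, a mouse neural stem cell line kept as an established culture. One sample was a normal culture (control), and the other had been given homocysteine thiolactone (HTL), the cyclic thioester of homocysteine, which reacts with the side chain of lysine. The labels give neither dose nor duration for the treated culture. The study's culture methods describe serum starvation before HTL was added, and do not say if it applied to these RNA samples. Any part of starvation in the results was not tested. Each condition had 1 library, so no difference has a replicate check, and every interval and test covers counting error between these 2 libraries only.

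The libraries held 10350646 (control) and 9102057 (HTL) reads after rounding. All 52 genes passed the minimum of 10 reads in both libraries together, with at least 266 reads each, so none was left out by the filter. NE4C identity was checked on 10 neural stem cell markers. Nes (1617 and 1365 reads in the control and HTL libraries), Vim, Sox2, Msi1 and Hes1 had over 100 reads in each library, whereas Pax6 (69 and 66 reads) and Sox1 (48 and 12 reads) were low, Notch1 was higher (124 and 231 reads), and Hes5 (1 and 0 reads) and Fabp7 (2 and 2 reads) were close to absent. By the 2-fold call defined below, Sox2, Vim and Sox1 were lower in the HTL library (log2 ratios -1.46, -1.01 and -1.78) and Notch1 was higher (1.08). These are 37.5% and 12.5% of the 8 stem cell markers with enough reads, against 7.98% and 2.81% of all genes tested. The 8 of these markers with at least 10 reads together came to 197 FPKM (fragments scaled to transcript length and library size) in the control and 135 FPKM in the HTL library. Of 17 markers of neurons, glia and blood, vessel or fibroblast cells, S100b, Olig2, Ptprc and Cdh5 were not analysed here, and Gfap (2 and 0 reads) and Neurod1 (7 and 1 reads) were at or near 0. The summed levels of those with at least 10 reads were 20.1 and 27.7 FPKM for 4 neuron markers, 4.91 and 6.61 FPKM for 3 glia markers and 4.79 and 3.11 FPKM for 4 markers of blood, vessel and fibroblast cells. Among these, Tubb3 (296 and 396 reads, 0.60) and Aldh1l1 (21 and 56 reads, 1.58) passed the 1.5-fold call defined below as higher, and Dcx (88 and 29 reads, -1.40) and Pdgfrb (112 and 46 reads, -1.09) as lower. The part of all these markers in the results was not tested.

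DNA replication is prepared in G1 and carried out in S phase. The origin recognition complex (ORC) marks origins, and CDC6 and CDT1 then load the ring-shaped MCM2-7 helicase, a step blocked by geminin (Gmnn). Kinases turn the loaded ring into an active helicase with CDC45 and the GINS complex, after which primase, the polymerases, the sliding clamp PCNA and a set of fork protection proteins copy the strands. Many of these genes are classical targets of E2F transcription factors and are expressed in dividing neural progenitors. In a bulk sample, fewer cells in S phase and less RNA per cell cannot be told apart.

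Because E2F control is the best known feature that these genes share, their promoters were inspected first. RefSeq promoter windows (GRCm38.p6, 250 bases before to 50 bases after the start site) were matched by symbol for 42 of the 52 genes, with 51 windows in all; Gmnn, Mcm4, Gins1, Gins2, Gins4, Recql4, Rfc2, Prim2, Pole and Tipin were not matched. The E2F motif was searched on both strands as TTTCCCGC, TTTCGCGC, TTTGCCGC or TTTGGCGC, and matches may overlap. Of the members' windows 35.3% held a match (18 of 51), against 2.26% of all 32851 windows (744 windows) and 3.90% of the 13553 windows of genes tested. The CCAAT box was found in 51.0% of members' windows and 37.4% of all windows. A match is a description of letters, not of binding.

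The windows of 4 genes are shown, with the E2F matches in capitals. Cdc6 had the highest log2 ratio of all members, Pole2 and Pold1 the lowest log2 ratios among members with a window, and Mcm6 the most matches. The Cdc6 window lies at chr11:98907901-98908200 (plus strand), with its match at base -138 from the start site. That of Mcm6 lies at chr1:128359656-128359955 (minus strand), with matches at -110, -106 and -47, of which the first and the second overlap. The windows of Pole2 (chr12:69228141-69228440, minus strand) and Pold1 (chr7:44548766-44549065, minus strand) hold matches downstream of the start site, at bases 11 and 40.
Cdc6: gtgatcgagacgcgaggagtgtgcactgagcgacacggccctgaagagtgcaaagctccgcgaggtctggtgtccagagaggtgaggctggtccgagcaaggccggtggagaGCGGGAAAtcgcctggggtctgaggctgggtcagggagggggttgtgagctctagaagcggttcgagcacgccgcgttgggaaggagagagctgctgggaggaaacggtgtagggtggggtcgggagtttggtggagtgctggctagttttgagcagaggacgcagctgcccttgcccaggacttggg
Mcm6: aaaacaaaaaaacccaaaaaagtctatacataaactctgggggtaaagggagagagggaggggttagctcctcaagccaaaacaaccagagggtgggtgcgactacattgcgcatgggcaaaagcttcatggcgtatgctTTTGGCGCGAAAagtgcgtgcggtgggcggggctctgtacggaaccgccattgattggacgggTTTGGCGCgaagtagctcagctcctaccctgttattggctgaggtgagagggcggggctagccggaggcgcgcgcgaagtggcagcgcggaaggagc
Pole2: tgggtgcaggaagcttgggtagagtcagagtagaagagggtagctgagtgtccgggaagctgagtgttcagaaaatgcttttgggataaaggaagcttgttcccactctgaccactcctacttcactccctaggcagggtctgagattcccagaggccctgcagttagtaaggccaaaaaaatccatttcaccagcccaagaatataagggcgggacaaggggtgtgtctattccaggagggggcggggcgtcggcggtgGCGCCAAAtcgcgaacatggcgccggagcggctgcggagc
Pold1: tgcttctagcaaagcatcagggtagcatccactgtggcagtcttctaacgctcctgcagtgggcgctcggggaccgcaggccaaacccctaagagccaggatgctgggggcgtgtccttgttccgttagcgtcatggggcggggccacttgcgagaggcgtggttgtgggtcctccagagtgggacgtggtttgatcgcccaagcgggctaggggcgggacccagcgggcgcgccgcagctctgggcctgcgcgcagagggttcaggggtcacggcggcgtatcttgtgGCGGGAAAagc

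Replication genes as a whole did not move in 1 direction. Their log2 ratios (HTL over control, scaled to library totals) ran from -1.62 for Tipin to 0.84 for Cdc6, with a median of -0.076, against -0.14 for all 13442 genes tested. Of the 52 genes, 23 had a ratio above 0 and 29 below, and their median lay above 0 under the other scalings described below (0.054, 0.060 and 0.017). Cdc6, of helicase loading, and Orc6 were the highest, and fork protection genes and several polymerase subunits were among the lowest. Members were well expressed: their median level was 31.9 FPKM in control and 37.4 FPKM in HTL cells, against 7.13 and 6.14 FPKM for all genes tested.

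Calls were made at 3 levels, all of which required an adjusted p no higher than 0.001 (two-sided exact binomial test, Benjamini-Hochberg adjustment over all genes tested). A gene passed the test at any size of change. The 1.5-fold call also needed a log2 ratio 0.585 or more from 0, and the 2-fold call, the cutoff of the study's methods, 1 or more. By the test alone 11 members were higher in the HTL library (21.2% against 14.5% of all genes tested) and 17 lower (32.7% against 24.1% of all genes). The test alone calls smaller changes in genes with more reads. Members had higher levels than all genes tested (control medians 31.9 and 7.13 FPKM). Shares by the test alone, here and below, are therefore not matched for depth. At 1.5-fold 2 members were higher (3.85%; 7.37% of all genes) and 10 lower (19.2%; 16.2% of all genes). At 2-fold none was higher (2.81% of all genes) and 3 were lower (5.77%; 7.98% of all genes). The shares past 1.5-fold and 2-fold lay near those of all genes or under them. These calls allow for no spread between cultures. With such a spread assumed (exact test of edgeR, coefficient of variation 0.1), 4 members passed the same adjusted p, namely Cdc6, Pold1, Pole2 and Tipin, and none passed at 0.2 or 0.4. At 0.2 or 0.4, 1 library per condition was too few for the test to call changes of the members' size, so these zero counts say nothing about the members.

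The split between higher and lower depended on the scaling. TMM scaling added 0.13 to every log2 ratio, the median of ratios 0.14 and the upper quartile 0.093. By the test alone, 17 members were then higher and 13 lower under TMM (20.1% and 18.5% of all genes), 19 and 13 under the median of ratios (20.4% and 18.2% of all genes), and 16 and 14 under the upper quartile (18.3% and 19.9% of all genes). Mcm7, Prim1 and Pola2 were no longer lower by the test under any of the 3, and Cdc7 was not under TMM or the median of ratios. Mcm2, Gins2, Gins3, Rpa1 and Prim2 passed as higher under all 3, Pcna did so with TMM or the median of ratios, and Pold3 and Lig1 with the median of ratios only.

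**Figure D1:**
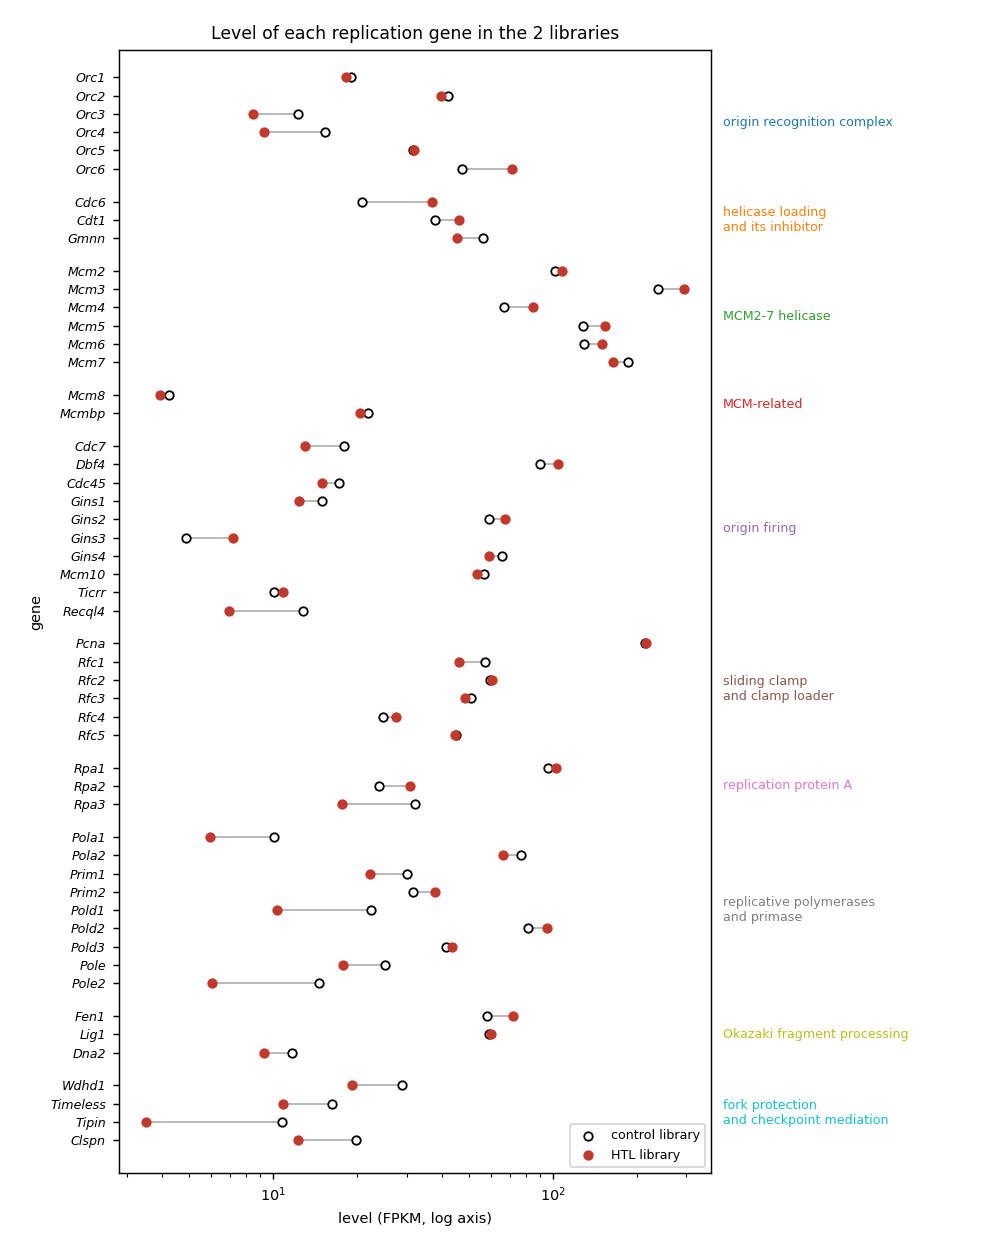
Level of each of the 52 genes in FPKM (log axis) in the control library (open circles) and the HTL library (filled circles), joined by a line and ordered by role. Mcm3 and Pcna had the highest levels in both libraries. Tipin, Pole2 and Pold1 lay well to the left of their control value, and Cdc6 and Orc6 to the right.

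ORC subunits differed from each other. Orc6, the smallest and most loosely bound subunit, had 786 reads in the control and 1047 in the HTL library, and rose by a log2 ratio of 0.60 (95% interval 0.46 to 0.73), just inside the 1.5-fold cutoff. Orc4, an AAA+ subunit of the ring that encircles DNA, had 612 and 305 reads, and its log2 ratio was -0.82 (-1.02 to -0.62). Orc3 had 810 and 493 reads and also fell, with a log2 ratio of -0.53 (-0.70 to -0.37), short of 1.5-fold. Its transcript is long (6311 bases), and centred on genes of similar length its log2 ratio was -0.29. Centring took off the median of genes of similar length and added back that of all genes (-0.14). A centred value below 0 can therefore still lie above genes of similar length. The other subunits did not pass: Orc1 (599 and 504 reads), Orc2 (1563 and 1298 reads) and Orc5 (674 and 599 reads) gave log2 ratios of -0.064, -0.083 and 0.015. The median of the 6 was -0.073 here and above 0 under each other scaling. The level of Orc6 was 308% of that of Orc4 in the control and 773% in the HTL library (FPKM). Changes of such ratios are given from reads rather than FPKM, here and below, for 12 pairs of genes chosen after their values were seen, and library scaling does not affect them. The ratio of Orc6 to Orc4 reads changed by 1.42 on the log2 scale (interval 1.17 to 1.66). Orc6 fell short of 1.5-fold (0.48) when centred in the same way. In the annotation, exons of Orc4 overlap Acvr2a and Mbd5 on the opposite strand. Of the 52 genes, 13 have such an overlap, and no source says if reads were counted by strand.

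Cdc6 and Cdt1, which load the helicase with ORC, were higher by the test (2 of the 3 genes in this group, 66.7% against 14.5% of all genes). The inhibitor Gmnn was not. Cdc6 (gene ID 23834; NCBIM37 chr11:98769115-98785254, plus strand), the ATPase that joins ORC to recruit MCM2-7, had 986 reads in the control and 1548 in the HTL library. It was 1.78-fold higher, a log2 ratio of 0.84 (0.72 to 0.95; adjusted p = 7.95e-46, exact binomial test, Benjamini-Hochberg adjusted), the highest of the 52 and at percentile 93.1 of all genes tested. Cdt1, the MCM2-7 chaperone in loading, had 879 and 943 reads and passed the test with a log2 ratio of 0.29 (0.15 to 0.42). Gmnn, which binds and inhibits CDT1, gave 569 control and 403 HTL reads (log2 ratio -0.31, -0.50 to -0.13) and missed the adjusted p of 0.001. Its transcript has 995 bases, and centred on length its log2 ratio was -0.59. The Cdt1 level was 67.1% of the Gmnn level in the control and 102% in the HTL library, a change of the ratio by 0.60 on the log2 scale (0.37 to 0.83). Cdc6 stood at 109% of the Orc1 level in the control and 204% in the HTL library, a change by 0.90 (0.69 to 1.11).

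MCM2-7 transcripts were abundant and, for 4 of the 6, slightly higher after HTL (66.7% against 14.5% of all genes, not matched for depth). In the control library their levels ran from 66.6 FPKM (Mcm4) to 237 FPKM (Mcm3), and their sum was 848 FPKM, against 955 FPKM in the HTL library. Mcm3 gave 7118 control and 7801 HTL reads (log2 ratio 0.32, 0.27 to 0.36), and Mcm4 gave 2492 control and 2807 HTL reads (log2 ratio 0.36, 0.28 to 0.44). Mcm5 (4588 and 4833 reads) and Mcm6 (4031 and 4087 reads) followed with 0.26 (0.20 to 0.32) and 0.21 (0.14 to 0.27). These 4 passed the test but not the 1.5-fold call, and lay at percentiles 71.1 (Mcm6) to 79.0 (Mcm4) of all genes tested. Mcm2 gave 3580 control and 3342 HTL reads (log2 ratio 0.086, 0.018 to 0.15), which did not pass here but did under TMM, the median of ratios and the upper quartile, where 5 of the 6 were higher, against 18.3% to 20.4% of all genes. Mcm7 was the exception, with 4601 control and 3599 HTL reads (log2 ratio -0.17, -0.23 to -0.11). It was lower by the test here, yet stayed below 0 without passing under each other scaling. The subunits form a ring with equal numbers of each. The Mcm4 level was 36.0% of the Mcm7 level in the control and 51.8% in the HTL library, a change by 0.53 on the log2 scale (0.43 to 0.63). Exons of Mcm7 overlap Ap4m1 and Cops6 on the opposite strand and the microRNA genes Mir25 and Mir93 on the same strand.

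The MCM-related genes Mcm8, a helicase of recombination repair, and Mcmbp, a binding partner of MCM proteins, gave log2 ratios of -0.094 each. TMM and the median of ratios placed both above 0. Mcm8 was the least abundant member in the control, at 4.25 FPKM, against 3.93 FPKM in the HTL library. Its 153 and 126 reads leave an interval of -0.45 to 0.26, so a difference inside these bounds was not detectable at this depth.

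**Figure D2:**
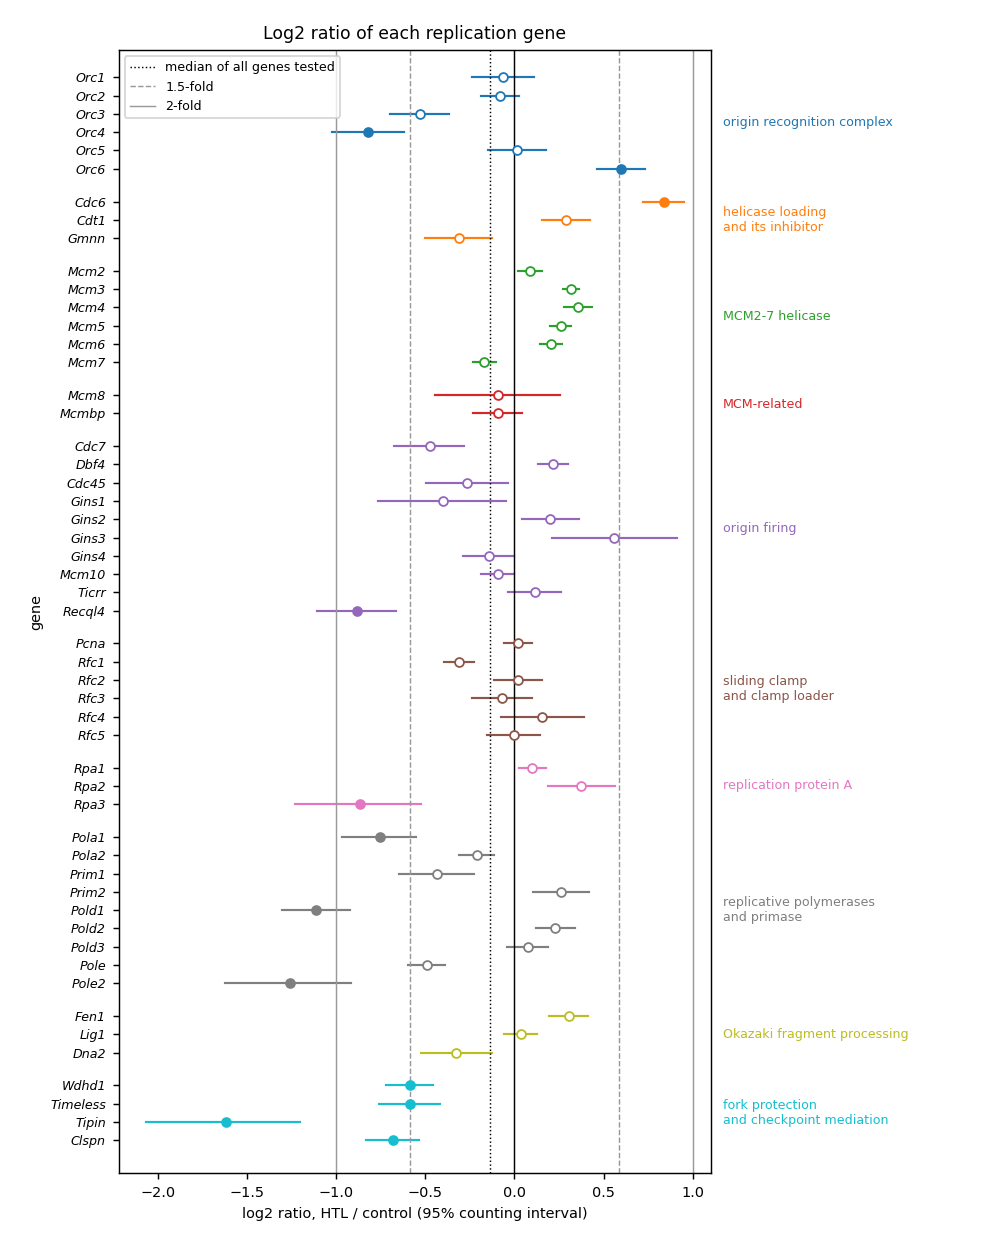
Log2 ratio (HTL over control) of each of the 52 genes with its 95% counting interval, ordered by role; filled circles passed the 1.5-fold call. The dotted line is the median of all genes tested (-0.14), dashed lines mark 1.5-fold and grey lines 2-fold. All 4 fork protection genes lay to the left, and Tipin, Pole2 and Pold1 lay beyond 2-fold.

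Origin firing genes were mixed. With library totals 1 of the 10 was higher by the test (10% against 14.5% of all genes). A further 2 were lower (20% against 24.1%), so both shares lay under those of all genes. This did not hold for the higher genes under any other scaling. They were then 3 of the 10, a larger share than the 18.3% to 20.4% of all genes. The lower genes were 1 of the 10 with TMM or the median of ratios, and 2 with upper quartile scaling (18.2% to 19.9% of all genes). Recql4, a RecQ helicase needed at origins, had 525 reads in the control and 250 in the HTL library, a log2 ratio of -0.88 (-1.11 to -0.66), the lowest of the group. Cdc7, the kinase that phosphorylates MCM proteins, fell from 555 to 351 reads, a log2 ratio of -0.48 (-0.67 to -0.28), but did not pass under TMM (-0.34) or the median of ratios (-0.34). Dbf4, its activating subunit, went the other way, with 2285 control and 2332 HTL reads (log2 ratio 0.21, 0.13 to 0.30). Dbf4 was expressed at 501% of the Cdc7 level in the control and 805% in the HTL library, and the ratio changed by 0.69 on the log2 scale (0.48 to 0.90). Among the GINS subunits, Gins3 gave 122 control and 158 HTL reads (log2 ratio 0.56, 0.21 to 0.91), which reached the 1.5-fold call under TMM, the median of ratios and the upper quartile (0.69, 0.69 and 0.65) but not here. Gins1 (167 and 111 reads), Gins2 (635 and 642 reads) and Gins4 (918 and 730 reads) gave -0.40, 0.20 and -0.15. Of these Gins2 passed as higher under each other scaling (0.29 to 0.34). Centred on length Gins2 was -0.074, with the median of all genes (-0.14) added back. Its ratio still lay above the median of genes of its length (0.14). The remaining genes were Cdc45 (372 and 272 reads, -0.27), Mcm10 (2095 and 1725 reads, -0.095) and Ticrr, the treslin gene (761 and 724 reads, 0.11, or 0.35 centred on length). Exons of Recql4 overlap Mfsd3, those of Cdc45 overlap Ufd1l and those of Gins2 overlap Gse1, on the opposite strand.

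With library totals the sliding clamp and its loader lay near 0, apart from Rfc1. Under each other scaling 5 of the 6 genes lay above 0, and 5 of the 6 lay below 0 when centred on transcript length. The centred values hold the added median of all genes (-0.14), however. Pcna, Rfc2 and Rfc4 lay above the median of genes of similar length (-0.020), as did Rfc5 (-0.049). Rfc1 and Rfc3 lay below theirs. Pcna, the clamp that tethers polymerases to DNA, gave 2742 control and 2447 HTL reads (log2 ratio 0.021, -0.058 to 0.10; 0.15 under TMM and 0.16 under the median of ratios, where it passed as higher, and -0.096 centred on length), and its level was 213 FPKM in the control and 215 FPKM in the HTL library. Of the RFC subunits that open and load the clamp, Rfc1, the large subunit, had 2833 and 2007 reads and fell with a log2 ratio of -0.31 (-0.40 to -0.23). Rfc2, Rfc3, Rfc4 and Rfc5 lay between -0.070 and 0.16 and did not pass. Rfc4 was the highest of these, with 310 and 304 reads (interval -0.076 to 0.39).

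Replication protein A, the trimer that coats single-stranded DNA, showed a different value for each subunit. Rpa1, the large subunit, gave 3046 control and 2872 HTL reads (log2 ratio 0.10, 0.027 to 0.17), which did not pass here but passed as higher under each other scaling (0.19 to 0.24). Rpa2, the middle subunit, rose from 438 to 499 reads, a log2 ratio of 0.37 (0.19 to 0.56). Rpa3, the small subunit, fell from 210 to 101 reads, a log2 ratio of -0.87 (-1.23 to -0.52). The Rpa2 level was thus 73.9% of that of Rpa3 in the control and 175% in the HTL library, and the ratio changed by 1.24 on the log2 scale (0.84 to 1.65). Rpa3 has a short transcript (655 bases). Genes of 67 to 1180 bases had a median log2 ratio of 0.14, so centring on length, with the median of all genes (-0.14) added back, moved Rpa3 further from 0, to -1.14.

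Among the polymerases, subunits of the same enzyme diverged, and 6 of the 9 genes passed the test as lower (66.7%; 24.1% of all genes). Under each other scaling 4 did, against 18.2% to 19.9% of all genes. Pole2 (gene ID 18974; NCBIM37 chr12:70302766-70329177, minus strand), the second subunit of the leading-strand polymerase epsilon, had 254 reads in the control and 93 in the HTL library. Its log2 ratio was -1.26 (-1.62 to -0.92; adjusted p = 2.35e-13, exact binomial test, Benjamini-Hochberg adjusted), past the 2-fold call. Pole, the catalytic subunit, had 1885 and 1178 reads and fell less, with a log2 ratio of -0.49 (-0.60 to -0.39), or -0.25 when centred on genes of similar length (its transcript has 7167 bases). The histone-fold subunits of the same enzyme, which are not among the 52 genes and were singled out after their values were seen, were not lower: Pole3 had 248 and 235 reads (0.11) and Pole4 had 118 and 174 reads (0.74, past 1.5-fold). The Pole2 level was 35.8% of the Pole3 level in the control and 13.8% in the HTL library, a change by -1.37 on the log2 scale (-1.82 to -0.93). For Pole against Pole3 the change was -0.60 (-0.89 to -0.32), but -0.085 (-0.37 to 0.20) when both genes were centred on length, a check added after the data were seen. The intervals of the other 11 pairs stayed clear of 0 in that check.

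Polymerase delta, which copies the lagging strand, also had subunits with different values. Pold1 (gene ID 18971; NCBIM37 chr7:51788116-51804219, minus strand), its catalytic subunit, gave 799 control and 325 HTL reads (log2 ratio -1.11, -1.30 to -0.92; adjusted p = 3.35e-33, exact binomial test, Benjamini-Hochberg adjusted). It passed the 2-fold call here but not under TMM (-0.98) or the median of ratios (-0.97). The accessory subunits Pold2 (1371 and 1413 reads, 0.23) and Pold3 (1301 and 1204 reads, 0.074) lay above 0, and Pold2 passed the test. Centred on length, Pold2 was 0.11. The Pold1 level was 27.5% of the Pold2 level in the control and 10.8% in the HTL library, and the ratio changed by -1.34 (-1.56 to -1.12). In the polymerase alpha and primase complex, which makes the first stretch of each new strand, Pola1, the catalytic subunit, gave 563 control and 293 HTL reads (log2 ratio -0.76, -0.97 to -0.55). Its partner Pola2 fell less, from 1912 to 1452 reads (-0.21, -0.31 to -0.11), and did not pass under any other scaling (-0.12 to -0.075). Prim1, the catalytic primase subunit, fell from 475 to 309 reads (-0.43, -0.65 to -0.23), while Prim2, its regulatory partner, had 650 and 685 reads (0.26, 0.10 to 0.42) and did not pass. Under each other scaling this was turned round: Prim1 did not pass (-0.34 to -0.30) and Prim2 passed as higher (0.35 to 0.40). The Prim1 level was 95.4% of that of Prim2 in the control and 58.9% in the HTL library. The ratio changed by -0.70 on the log2 scale (-0.96 to -0.43).

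Okazaki fragments are trimmed and joined by the flap nuclease FEN1, the nuclease-helicase DNA2 and DNA ligase LIG1. Fen1 had 1296 and 1408 reads and passed the test with a log2 ratio of 0.30 (0.20 to 0.42). Lig1 (1911 and 1721 reads, 0.034) and Dna2 (503 and 353 reads, -0.33) did not, although Lig1 passed as higher under the median of ratios (0.17). Exons of Fen1 and Lig1 overlap genes on the opposite strand.

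All 4 fork protection and checkpoint genes fell, and they were the only role group, of the 10 described, in which every gene passed the test in 1 direction (4 of 4 lower; 24.1% of all genes). Tipin (gene ID 66131; NCBIM37 chr9:64129414-64152599, plus strand), the small partner of TIMELESS, had 207 reads in the control and 59 in the HTL library. Its log2 ratio of -1.62 (-2.07 to -1.20; adjusted p = 9.47e-16, exact binomial test, Benjamini-Hochberg adjusted) was the lowest of the 52 genes and lay at percentile 4.23 of all genes tested. Timeless, which travels with the fork, gave 758 control and 444 HTL reads (log2 ratio -0.59, -0.76 to -0.42). Clspn (claspin), the mediator between a stalled fork and the kinase CHK1, gave 1037 control and 568 HTL reads (log2 ratio -0.68, -0.83 to -0.53). Wdhd1, the AND-1 protein that links helicase and polymerase alpha, gave 1263 control and 739 HTL reads (log2 ratio -0.59, -0.72 to -0.46). Summed over the group, the level was 75.6 FPKM in control and 45.8 FPKM in HTL cells. The Tipin level was 66.4% of the Timeless level in the control and 32.3% in the HTL library, a change by -1.04 (-1.52 to -0.58). Under TMM, the median of ratios and the upper quartile all 4 still passed the test as lower, with medians of -0.50, -0.50 and -0.54. Timeless and Wdhd1 lie just past 1.5-fold and fell short of it under each of those scalings, and Clspn under TMM and the median of ratios. The median transcript length of these 4 genes was 4321 bases, and log2 ratios were lower for longer genes in these libraries, with medians from 0.14 in the shortest of 10 equal bins to -0.38 in the longest. Centred on length, with the median of all genes added back, the median of the 4 was -0.53. Clspn (-0.54), Wdhd1 (-0.52) and Timeless (-0.52) then fell short of 1.5-fold, which Tipin alone of the 4 passed (-1.71). Tipin was among 7 members whose deposited reads were fractional (207.05 and 59.38).

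Members with and without an E2F match overlapped in their log2 ratios. The 18 members with a match had a median of -0.067, with 5 higher and 6 lower by the test, and the 24 without one had a median of -0.044, with 5 higher and 8 lower. Across all genes tested that had a window, those with a match (502 of 10615) had a median of -0.18, against -0.13 for all of them. By the test, 70 of those 502 genes were higher and 159 lower, beside 1561 higher and 2567 lower of all 10615. Of the 5 members with more than 1 match, 4 were the MCM2-7 genes Mcm3, Mcm5, Mcm6 and Mcm7. The motif printed above in capitals thus stood in windows of genes at both ends of the range, Cdc6 at one and Pole2 and Pold1 at the other.

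**Figure D3:**
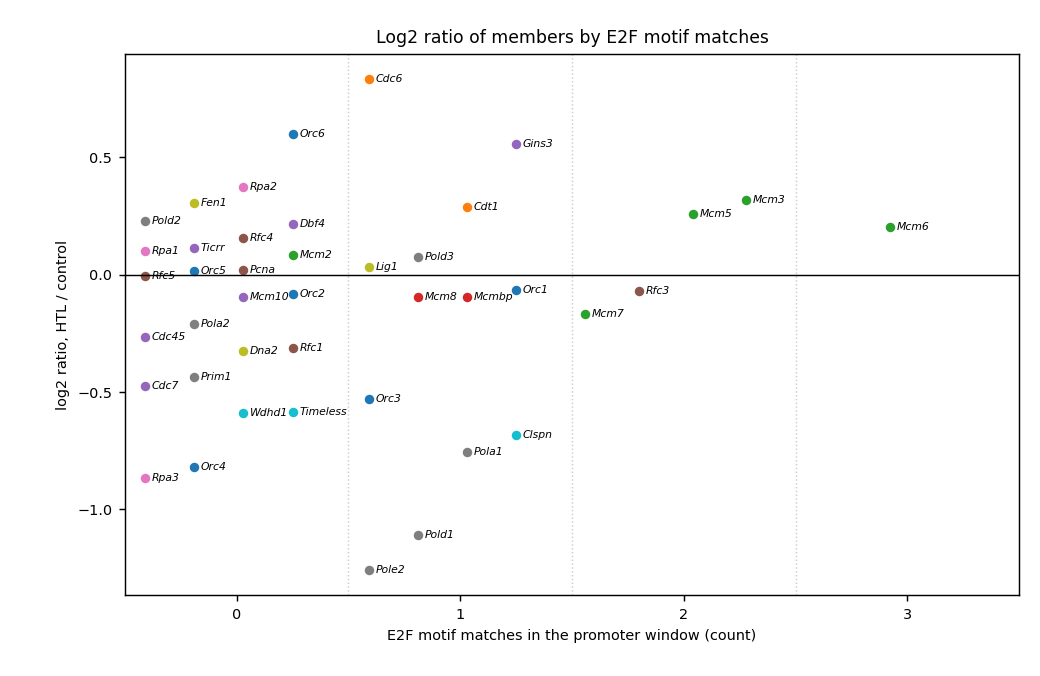
Log2 ratio (HTL over control) of the 42 members with a promoter window, by the number of E2F motif matches in the window; points are spread sideways within a count and coloured by role. The 18 genes with a match spanned -1.26 (Pole2) to 0.84 (Cdc6), and the 24 without one -0.87 (Rpa3) to 0.60 (Orc6).

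Related lists were compared in the same way. Of 20 other replisome genes, 1 was higher (5.0%; 14.5% of all genes) and 6 lower by the test (30.0%; 24.1% of all genes), with a median of -0.085. The lower genes were 4 under each other scaling. Pole4 was the largest rise at 1.5-fold. Chtf18 was the largest fall, with 465 control and 198 HTL reads (log2 ratio -1.04, -1.29 to -0.80), and its partner in the alternative clamp loader, Dscc1, had 158 and 72 reads (-0.94, -1.37 to -0.54). Topbp1, the scaffold of origin firing and ATR activation, had 3206 and 1538 reads (-0.87, -0.96 to -0.79). Chtf8, the third specific subunit of that loader, gave 1417 control and 1263 HTL reads (log2 ratio 0.019). Dscc1, Topbp1 and Chtf8 were singled out after their values were seen.

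Of 13 genes that control licensing and S-phase kinases, 1 was higher (7.69%) and 7 lower (53.8%; 24.1% of all genes), with a median of -0.19. With TMM or the median of ratios 4 were lower, and 5 with upper quartile scaling. The largest fall past 1.5-fold was Cul4b, a scaffold of the ubiquitin ligase that degrades CDT1, with 1887 and 959 reads (-0.79, -0.90 to -0.68), next to Ccne2 (cyclin E2) with 250 and 127 reads (-0.79, -1.11 to -0.48). The higher gene was Ddb1, of the same ligase, with 11758 and 14497 reads (0.49, short of 1.5-fold). Of 10 deoxynucleotide supply genes, 1 was higher (Dctpp1, 849 and 955 reads; 10% against 14.5% of all genes) and 4 lower (40% against 24.1%; 3 with TMM or the median of ratios), with a median of -0.33, the largest fall being Tk1, thymidine kinase, with 307 and 152 reads (-0.83, -1.12 to -0.54). Of 13 E2F and pocket protein genes, 1 was higher (E2f6, 218 and 286 reads, 0.58; 7.69% against 14.5% of all genes) and 4 lower (30.8% against 24.1%), with a median of -0.26. E2f1 fell most, from 292 to 108 reads (-1.25, -1.58 to -0.93), and E2f3 (670 and 295 reads, -0.997) and the E2F partners Tfdp1 (2285 and 1148 reads, -0.81) and Tfdp2 (1655 and 863 reads, -0.75) also passed 1.5-fold. Of 12 mitotic genes, 3 were higher, led by Aurka (2581 and 3211 reads, 0.50), and 6 lower (25% and 50%, against 14.5% and 24.1% of all genes), with a median of -0.17 and the largest fall in Cenpf (4306 and 1779 reads, -1.09, -1.17 to -1.01). That split was 5 higher and 5 lower with TMM or the median of ratios, and 4 and 5 with upper quartile scaling. The median of the other replisome genes lay above 0 under TMM, the median of ratios and the upper quartile, whereas those of the other 4 lists stayed below 0. Ccne2, E2f3, Tfdp1 and Tfdp2 were singled out after their values were seen.

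**Figure D4:**
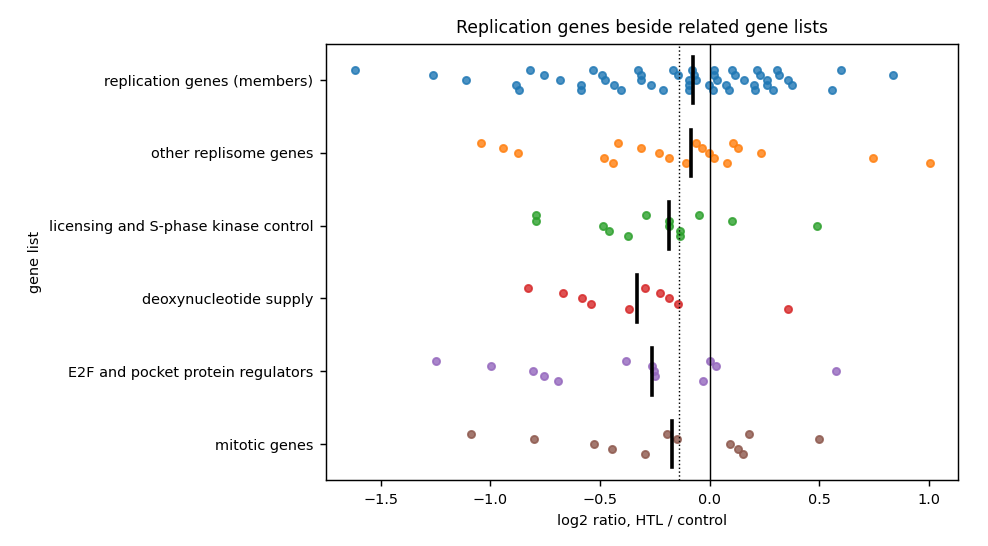
Log2 ratio (HTL over control) of the 52 replication genes and of 5 related lists; each point is a gene, black bars are list medians and the dotted line is the median of all genes tested (-0.14). The medians ran from -0.33 (deoxynucleotide supply) to -0.076 (the 52 genes).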

How the data were processed

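RNA of 2 NE4C cultures was sequenced, 1 library for the control and 1 for HTL treatment, grouped by sample title. Per the labels, a TruSeq RNA kit was used on total RNA, and sequencing followed BGISEQ protocols; the submitters' processing notes name the build mm9. Per the study's methods, reads were mapped to mouse genome and genes and quantified with RSEM (spelled RESM there); mapper, versions, annotation and strand use are not given in the sources used here. The authors deposited estimated counts (expected counts, not normalized; 21.8% of control and 20.2% of HTL values were fractional), FPKM values that the authors had divided by transcript length and depth, and columns of their own comparison (log2 ratio, p-value and FDR), which were not used.

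Estimated counts were rounded. A total of 13442 of 16803 genes reached 10 reads over both libraries and entered a two-sided exact binomial test of their reads against library totals (scipy 1.17.1), with Benjamini-Hochberg adjustment over all of them; 0.5 read was added for log2 ratios. Intervals (95%) are exact Clopper-Pearson intervals of the HTL library's share; those of ratios between genes are exact conditional intervals of the odds ratio. No molecular identifiers marked the reads, which may be copies of 1 molecule, so these cover counting error only, and a test compares the libraries, not the conditions. The quasi-likelihood fit of edgeR and DESeq2 need replicates. Alternatives tried were scaling by TMM, by the median of ratios and by the upper quartile, other filters, 5 reads added, FPKM + 1, centring within 10 bins of transcript length, other cutoffs, and the exact test of edgeR 4.0.16 with an assumed coefficient of variation of 0.1, 0.2 or 0.4. Centring took off the median of the bin and added back the median of all genes tested. The binomial test and edgeR's test were tried on simulated counts with known changes; the latter called none of them at 0.2 or 0.4.

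Full statistics are given for members past a call and for the highest and lowest of each role; from each related list, the largest called rise and fall are named. Members and lists were chosen with earlier results of these data known, and pairs of genes after their values were seen. Gene coordinates are from GENCODE vM1 on NCBIM37 (the same assembly as mm9), matched by symbol for 51 of 52 genes; promoter windows are from RefSeq.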

Additional observations from a re-analysis of the deposited data

How the results depend on the processing

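No paired analysis was possible because there was only 1 library of each condition, and for the same reason no library could be left out. Of 13442 genes tested, 1450 passed the 2-fold call. This count was 816 with ratios of FPKM + 1, 3164 with the 1.5-fold cutoff and 5193 with no cutoff. In edgeR's exact test it was 1127 where a coefficient of variation of 0.1 was assumed, 120 for 0.2 and 6 for 0.4. Among the 52 members, the 12 calls at 1.5-fold became 4 where 0.1 was assumed, and the 28 calls with no cutoff also became 4. At 0.2 and 0.4, 0 members passed at any of the 3 levels, values at which the test could not call changes of this size. Scaling shifted medians of role groups by its constant: under TMM to 0.36 for MCM2-7, 0.010 for origin firing, 0.14 for the clamp and its loader, 0.23 for replication protein A and 0.16 for Okazaki processing. Under the median of ratios these were 0.37, 0.016, 0.14, 0.24 and 0.17, with 0.42 for helicase loading, and under the upper quartile 0.33 for MCM2-7 and 0.19 for replication protein A. The origin firing median, -0.12 with library totals, thus changed sign under TMM and the median of ratios. No member past the 1.5-fold call changed direction under any alternative. Of the 40 others, 7 changed sign under TMM, 7 under the median of ratios, 4 under the upper quartile and 4 when centred on transcript length. The last count depends on the median of all genes (-0.14) that centring added back.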
